A study of Mus musculus with 7 samples.

Results

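Plasma cells were the cells of the stromal vascular fraction that carried at least 20 unique molecular identifiers (UMIs, each 1 captured transcript molecule) of Jchain, at least 3 of Mzb1 and at least 1 of Xbp1. The filters (500 UMIs and 300 genes as minimum, 15% mitochondrial UMIs as maximum) kept 39566 cells, and 121 of these met the gate. They were set against B cells of the same libraries, which were the 1979 cells with at least 2 UMIs of Cd79a, at least 1 of Ms4a1 and under 20 of Jchain. The tissue was inguinal subcutaneous fat of female C57BL/6N mice without any further treatment. Collagenase digestion released its non-fat cells, which were loaded for droplet single-cell RNA sequencing with 10x Genomics 3' version 3 chemistry. The Old group held 3 libraries from mice aged 18 months, and the Young group held 4 libraries from mice aged 11 to 12 weeks. Of the 121 plasma cells, 120 lay in Old libraries and 1 in a Young library, so all further values describe plasma cells of old fat. The cells were selected on their own UMIs of Jchain, Mzb1, Xbp1, Cd79a and Ms4a1, and the levels of these genes are given as a description with no test.

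Plasma cells are B lineage cells that have matured to secrete antibody. The transcription factors PRDM1 (Blimp-1), IRF4 and XBP1 turn off the B cell program and enlarge the endoplasmic reticulum (ER), where immunoglobulin chains enter, fold, are glycosylated and leave for the Golgi. JCHAIN links immunoglobulin monomers into IgA dimers and IgM pentamers, and MZB1 is an ER chaperone that helps to assemble and secrete immunoglobulin. XBP1 is made active by the ER stress sensor IRE1 (encoded by Ern1), and long-lived plasma cells depend on signals through BCMA (Tnfrsf17) from stromal and myeloid cells. Immunoglobulin chain genes were not analysed here, since 0 of the 27998 listed features were such genes, so that class and clone of these cells were not measured, and all totals run over the other genes.

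The ER stress element, bound by XBP1 and ATF6 together with NF-Y, stood in the upstream DNA of several genes that were higher in plasma cells, and 4 of these sequences are shown because the genes they belong to, which act in ER folding and ER-associated degradation, were each higher. Each run is the 250 bases before the RefSeq start site (assembly GRCm38.p6), read 5′ to 3′ along the gene, with the fixed letters of the element, which is CCAAT, then 9 bases of any kind, then CCACG, in capitals; where it lies on the opposite strand, the capitals read CGTGG and then ATTGG.
Derl3, chr10:75893148-75893397, + strand: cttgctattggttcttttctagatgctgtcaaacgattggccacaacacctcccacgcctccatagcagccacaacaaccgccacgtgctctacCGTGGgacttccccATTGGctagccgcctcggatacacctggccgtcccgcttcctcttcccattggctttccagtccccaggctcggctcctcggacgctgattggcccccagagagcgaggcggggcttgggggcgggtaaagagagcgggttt
Creld2, chr15:88819396-88819645, + strand: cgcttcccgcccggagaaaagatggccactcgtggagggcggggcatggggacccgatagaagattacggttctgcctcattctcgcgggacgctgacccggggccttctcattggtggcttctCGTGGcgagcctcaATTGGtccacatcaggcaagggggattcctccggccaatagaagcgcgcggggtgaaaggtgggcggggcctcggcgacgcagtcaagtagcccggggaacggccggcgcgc
Pdia6, chr12:17266339-17266588, + strand: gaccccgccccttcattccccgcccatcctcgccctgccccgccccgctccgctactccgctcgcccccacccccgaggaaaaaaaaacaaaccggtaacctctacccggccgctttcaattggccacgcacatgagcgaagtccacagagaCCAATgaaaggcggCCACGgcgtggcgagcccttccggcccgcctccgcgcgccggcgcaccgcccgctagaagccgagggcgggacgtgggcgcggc
Hspa5, chr2:34771840-34772089, + strand: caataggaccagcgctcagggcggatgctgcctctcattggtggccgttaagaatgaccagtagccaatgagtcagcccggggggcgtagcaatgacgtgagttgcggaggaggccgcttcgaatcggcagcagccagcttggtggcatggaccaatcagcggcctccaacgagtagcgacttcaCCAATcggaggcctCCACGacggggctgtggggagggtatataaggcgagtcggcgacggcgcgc
Derl3 encodes derlin-3 of ER-associated degradation, Creld2 an ER folding factor, Pdia6 a protein disulfide isomerase and Hspa5 the ER chaperone BiP. The first base of the element, in reading direction, lay 156 bases before the start of Derl3, 126 before that of Creld2, 98 before that of Pdia6 and 65 before that of Hspa5.

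The libraries held 45514 barcodes, of which 39566 passed the filters, and their totals ran from 52336665 to 99516882 UMIs. The median kept cell had 6130 to 8028 UMIs in Old libraries and 9327 to 14100 in Young libraries, so that Young libraries were the deeper ones per cell. Any pair of libraries shared 2 to 19 barcodes among kept cells, and 1 barcode of a plasma cell occurred in another library, where it was not a plasma cell. The design text gives 3 old and 4 young mice, as many as there are libraries, and does not say whether animals were pooled, so n counts libraries.

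Plasma cells numbered 27, 54 and 39 in the 3 Old libraries and 0, 1, 0 and 0 in the 4 Young libraries. They made up 0.407% of kept cells in Old replicate 1 (95% exact Clopper-Pearson interval 0.268% to 0.592%), 0.725% in Old replicate 2 (0.545% to 0.945%) and 0.635% in Old replicate 3 (0.452% to 0.867%). The mean share was 0.589% ± 0.164 in Old libraries (SD, n = 3) and 0.00423% ± 0.00846 in Young libraries (SD, n = 4). A count of 0 allowed shares of up to 0.0639%, 0.105% and 0.0511% in Young replicates 1, 3 and 4, and the single cell of Young replicate 2 gave 0.0169% (0.000429% to 0.0943%). Every Old share lay above every Young share and above these limits; this contrast was known when the cells were chosen, so it is a description. These intervals cover counting error only.

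The ratio of plasma cells to B cells differed between the Old libraries. There were 11.9, 25.1 and 3.49 plasma cells per 100 B cells in the 3 Old libraries, against 0, 1.22, 0 and 0 in the Young libraries. B cells made up 3.42%, 2.89% and 18.2% of kept cells in Old libraries and 1.45%, 1.39%, 6.76% and 1.26% in Young libraries. B cell shares overlapped between the ages, with Young replicate 3 above Old replicates 1 and 2, while Old replicate 3, with the most B cells, had the lowest ratio of plasma cells to B cells of the Old libraries.

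**Figure D1:**
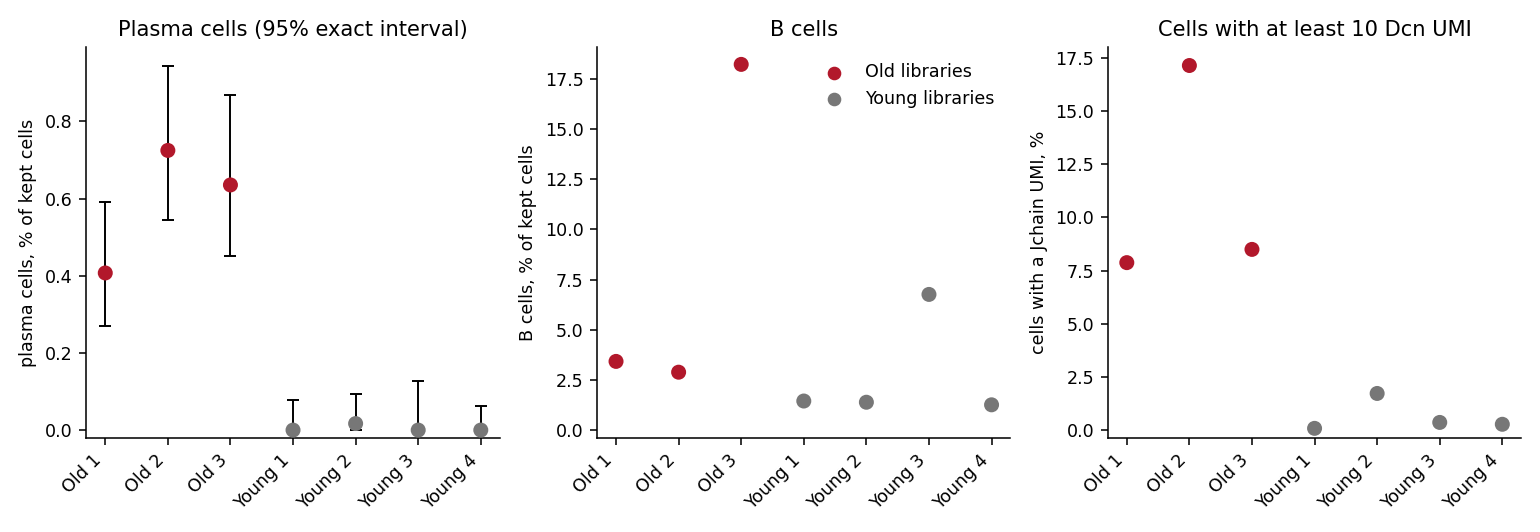
Each point is 1 library, Old libraries in red and Young libraries in grey. The left panel gives plasma cells as a percent of kept cells with 95% exact intervals (0.407% to 0.725% in Old and 0% to 0.0169% in Young libraries), the middle panel B cells as a percent of kept cells, and the right panel the percent of cells with at least 10 Dcn UMIs that held a Jchain UMI, which is above 7% in each Old library and below 2% in each Young library.

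Jchain transcripts also appeared at 1 or a few UMIs in cells of other kinds. Among kept cells that were neither B cells nor at 20 Jchain UMIs, 7.82%, 15.7% and 6.71% held a Jchain UMI in the Old libraries, against 0.151%, 1.39%, 0.187% and 0.190% in the Young libraries. Among cells with at least 10 UMIs of Dcn, a fibroblast and progenitor gene of cells not known to make Jchain, the shares were 7.87%, 17.1% and 8.50% in Old and 0.0816%, 1.72%, 0.360% and 0.273% in Young libraries. These cells had median depths of 9338 to 13565 UMIs in Old and 15203 to 27327 UMIs in Young libraries. The share was lower in every Young library, and the cells of Young libraries were deeper. Among Young libraries the share was highest in replicate 2, the library of the single young plasma cell. Among Old libraries it was also highest in replicate 2, whose plasma cells held 27964 Jchain UMIs, against 68953 in those of replicate 3. The source of these Jchain UMIs was not tested. The plasma cells held 85.7%, 93.8% and 99.3% of all Jchain UMIs of their Old library.

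The single young cell had 35681 UMIs, 3264 of Jchain, 148 of Mzb1 and 37 of Xbp1. It also had 731 UMIs of the 6 fibroblast and progenitor markers, 507 of them Dcn, and it was called a doublet (2 cells in 1 droplet) by its Scrublet score. It held 58 UMIs of Txndc5, 17 of Derl3, 14 of Ccr10 and 10 of Ctla4, and 0 of Pax5, Ms4a1, Il10 and Prg2. With called doublets left out, the Young libraries had 0 plasma cells and the Old libraries had 26, 51 and 36.

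Within the gate, Jchain differed widely from cell to cell. Old replicate 1 ran from 25 to 3027 Jchain UMIs with a median of 486, Old replicate 2 from 26 to 1840 with a median of 502, and Old replicate 3 from 81 to 4537 with a median of 1594. Jchain alone took a median of 5.61%, 5.41% and 12.2% of a plasma cell's UMIs, and 26.0% in the highest cell. Median Mzb1 was 35, 19.5 and 41 UMIs and median Xbp1 was 22, 19.5 and 44 UMIs in the 3 libraries, so replicate 3 was highest for all of these genes. Its plasma cells were also the deepest, with a median of 15884 UMIs, against 11421 and 10434 in Old replicates 1 and 2.

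Few cells lay near the Jchain limit, and more lay near the Mzb1 limit. Just inside, with 20 to 49 Jchain UMIs, were 2 cells of Old replicate 1 and 4 of Old replicate 2. Just outside, with 10 to 19 Jchain UMIs and the other genes in the gate, were 1, 2 and 3 cells of the Old libraries. A further 9 cells of Old replicate 1 had 77 to 853 Jchain UMIs and at least 2 Xbp1 UMIs but at most 1 Mzb1 UMI, and 2 cells of Old replicate 2 had 2 Mzb1 UMIs. Of plasma cell genes that the gate did not use, Txndc5 was read in 11 of these 11 cells, Slpi in 10, Sdc1 in 8, Tnfrsf17 in 7 and Derl3 in 5, and the B cell gene Ms4a1 in 4. Old replicate 1 was thus the library whose count depended most on the Mzb1 limit.

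Plasma cells held more UMIs and genes than B cells of their own library. The median plasma cell had 11421, 10434 and 15884 UMIs in the 3 Old libraries, and the median B cell 5908, 5844 and 4373. Median genes per cell were 3074, 2978.5 and 3127 in plasma cells and 2025, 2160 and 1489 in B cells, and mitochondrial UMIs were 5.32%, 5.25% and 3.98% in plasma cells and 6.30%, 6.75% and 4.89% in B cells. The gate itself asks for more UMIs of a plasma cell, and shares of cells with a UMI that are compared with B cells below are therefore also given after thinning every cell to 2000 UMIs, which 118 plasma cells and 1530 B cells of the Old libraries reached.

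For the comparison of genes, UMIs were summed over the plasma cells and over the B cells of each Old library (386881, 623554 and 755410 UMIs in plasma cells, against 1713879, 1796768 and 6083639 in B cells) and tested with edgeR, with the library as a block. Values are CPM (a gene's share of a sum's UMIs, scaled to a fixed total) after TMM scaling. Of 8396 genes tested, 2464 (29.3%) passed an adjusted p of 0.05, 1253 of them higher in plasma cells (14.9%) and 1211 lower (14.4%). The 3 plasma sums did not overlap the 3 B sums for 3113 genes (37.1%). At least 4-fold differences were called for 280 genes that were higher and 235 that were lower, and the median log2 fold change over all genes tested was -0.09. The count was 1495 genes without the library block, 1582 genes without Old replicate 1 and 1367 genes without Old replicate 3. The counts of each gene list below stand beside these percentages and carry no test of the list.

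The plasma cell identity genes that the gate did not use followed the label. Of 17 tested, 16 were higher in plasma cells and 1 was lower, with a median log2 fold change of 3.19. Sdc1, which encodes the surface proteoglycan CD138, had 309, 385 and 522 CPM in plasma cells and 7.13, 17.8 and 9.97 CPM in B cells (log2 fold change 5.19 ± 0.29 SE, edgeR adjusted p = 2.87e-06). Tnfrsf17, the receptor BCMA, had 211, 162 and 285 CPM in plasma cells and 7.13, 0.508 and 1.13 CPM in B cells (6.59 ± 0.51, edgeR adjusted p = 1.92e-05). The 3 plasma sums lay far above the 3 B sums for both genes, though the fold of Tnfrsf17 rests on few B cell UMIs and was 7.97 without Old replicate 1 and 5.72 without Old replicate 3. Derl3 had 472, 407 and 607 CPM in plasma cells and 3.84, 16.8 and 2.82 CPM in B cells (6.27 ± 0.52, edgeR adjusted p = 2.54e-05; 7.49 without Old replicate 2, 5.48 without Old replicate 3).

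Of the regulators, Prdm1 had 119, 189 and 77.4 CPM in plasma cells and 17.5, 47.2 and 9.22 CPM in B cells (log2 fold change 2.56 ± 0.26, edgeR adjusted p = 9.04e-05). Irf4, which both stages use, had 240, 279 and 102 CPM in plasma cells and 136, 112 and 87.8 CPM in B cells. Its groups overlapped, and its log2 fold change of 0.80 (edgeR adjusted p = 0.0283) did not hold without the library block (adjusted p = 0.129), without Old replicate 1 (0.107) or without Old replicate 2 (0.0810). Txndc5, an ER disulfide isomerase, had 2828, 2511 and 3713 CPM in plasma cells and 125, 129 and 110 CPM in B cells. Slamf7, a signalling receptor of plasma and natural killer cells, and Trp53inp1, a stress-induced gene, were 3.74 and 4.16 higher on the log2 scale. The lower gene was Zbtb20, a transcription factor, with a log2 fold change of -0.70 (480, 480 and 259 CPM in plasma cells, 899, 816 and 351 CPM in B cells, edgeR adjusted p = 0.0104). Its groups overlapped, and its call was lost without the library block (adjusted p = 0.207) and without Old replicate 1 (0.109).

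**Figure D2:**
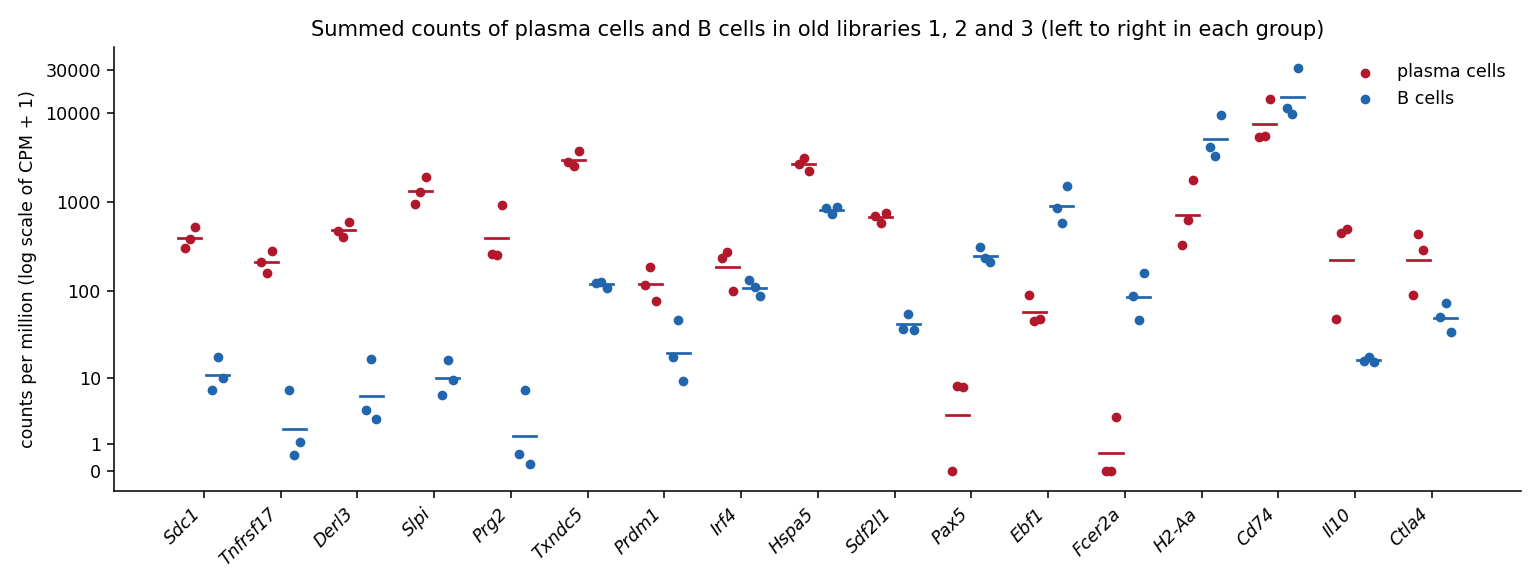
Points are the CPM (log scale of CPM + 1) of summed plasma cells (red) and summed B cells (blue) in Old replicates 1, 2 and 3, with lines at the mean of the log values. The plasma cell and ER genes on the left are higher in plasma cells in each library, Pax5, Ebf1, Fcer2a and H2-Aa are lower, and Irf4 and Cd74 overlap between the groups.

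Among the 12 largest increases were several genes outside the lists. Prg2, which encodes proteoglycan 2, the major basic protein of eosinophils, had 260, 253 and 919 CPM in plasma cells and 0.548, 7.11 and 0.188 CPM in B cells (log2 fold change 7.91 ± 0.82, edgeR adjusted p = 9.27e-05). It was read in 20 of 27, 41 of 54 and 34 of 39 plasma cells, but in 1 of 227, 3 of 215 and 1 of 1119 B cells. It averaged 0.803 CPM before scaling in the remaining kept cells of these libraries. After thinning it was read in 44.9% of plasma cells and 0.131% of B cells. Its fold depends on 16 B cell UMIs in all, and was 11.14 without Old replicate 2 and 6.07 without Old replicate 3. Slpi, a secreted protease inhibitor, had 944, 1285 and 1932 CPM in plasma cells and 6.03, 16.2 and 9.40 CPM in B cells (7.10 ± 0.29, edgeR adjusted p = 1.05e-06). It was read in 66 of the 120 plasma cells of Old libraries, compared with 109 of 120 for Sdc1, so its UMIs came from fewer cells. After thinning Slpi was read in 42.4% of plasma cells and 0.850% of B cells.

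The other genes of this set were Cacna1h (a T-type calcium channel, log2 fold change 6.66), Wnt10a (a secreted WNT ligand, 6.45), Pls1 (an actin-bundling plastin, 6.35), Hid1 (5.91), Pycr1 (the last enzyme of proline synthesis, 5.54), Chst1 (a Golgi sulfotransferase, 5.44) and Oosp1 (named for oocyte secretion, 4.64). The rule for naming them asked that the 3 plasma sums lie above the 3 B sums. Wnt10a was uneven, with 20.6, 58.6 and 84.9 CPM in plasma cells and 1.10, 0 and 0.752 CPM in B cells, and with a UMI in 5 of 27, 19 of 54 and 22 of 39 plasma cells. After thinning 8.47% of plasma cells and 0.131% of B cells held it. Its log2 fold change was 7.08 without Old replicate 1, and that of Cacna1h 7.36 without Old replicate 3. That of Hid1 was 7.56 with called doublets left out, and that of Pycr1 was 6.85 without the cells that held at least 1% of UMIs from another cell type's markers. Oosp1 had 206, 227 and 197 CPM in plasma cells, against 6.03, 15.2 and 5.83 CPM in B cells.

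The secretory pathway was higher in plasma cells at every step from entry to exit. Of 20 genes for ER entry and signal peptide processing, 19 were higher (median log2 fold change 1.95), with Sec62 not past the threshold unless Old replicate 3 was left out. Ssr4, a subunit of the translocon-associated TRAP complex, had 2735, 2091 and 2453 CPM in plasma cells and 172, 230 and 198 CPM in B cells (3.60 ± 0.19, edgeR adjusted p = 2.78e-06). The signal peptidase subunits Spcs1, Spcs2 and Sec11c were 3.25, 2.84 and 2.96 higher on the log2 scale.

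Of 21 ER chaperones and folding enzymes, 20 were higher (median log2 fold change 2.19), with Ero1lb not past the threshold. Hspa5 had 2648, 3120 and 2221 CPM in plasma cells and 853, 742 and 889 CPM in B cells (1.67 ± 0.16, edgeR adjusted p = 6.51e-05). Hsp90b1, the ER form of HSP90, had 6489, 4173 and 2965 CPM in plasma cells and 484, 928 and 358 CPM in B cells (2.99 ± 0.26). Larger folds were seen for Sdf2l1 (4.01), Fkbp2 (3.94), Creld2 (3.93) and Pdia4 (3.40), all resident in the ER. In single cells this list took a median of 1.54%, 1.79% and 1.52% of UMIs in plasma cells, against 0.332%, 0.306% and 0.316% in B cells, so the 3 libraries gave nearly the same level in each cell type.

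Of 17 genes for N-glycosylation, 16 were higher (median 1.86), with the folding sensor Uggt1 at -0.04 and not called. Lman1, a cargo receptor for glycoproteins, had 487, 326 and 281 CPM in plasma cells and 33.5, 63.5 and 25.6 CPM in B cells (log2 fold change 3.21), and the oligosaccharyltransferase subunits Ddost, Krtcap2 and Rpn2 were 2.57, 2.39 and 2.09 higher. Of 20 genes for ER to Golgi transport, 18 were higher (median 1.39), among them Tmed10 (2.32), Cope (2.23), Kdelr1 (2.11) and Surf4 (1.98). All 15 tested genes of ER-associated degradation, which removes misfolded proteins, were higher (median 2.14), with the lowest p for Sel1l (3.33), Herpud1 (3.26), Vimp (2.50) and Edem1 (3.90).

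The regulators of the unfolded protein response were higher in part, with 9 of 15 called, none lower, and a median log2 fold change of 1.13. Ern1, the sensor that splices Xbp1, had 43.8, 41.2 and 28.8 CPM in plasma cells and 2.19, 5.08 and 2.26 CPM in B cells (3.56 ± 0.41, edgeR adjusted p = 0.00016). Bhlha15 (MIST1), a transcription factor of secretory cells, had 51.6, 44.4 and 33.4 CPM in plasma cells and 0, 2.54 and 1.32 CPM in B cells (4.89 ± 0.56, edgeR adjusted p = 0.000161). Atf6, the second sensor, was 1.37 higher, while Eif2ak3 (PERK), the third sensor, had a log2 fold change of 0.45 that did not pass. Of genes that can act downstream of PERK, Atf4 (0.58), Asns (3.68), Chac1 (3.97) and Ddit3 (1.13) were higher, and Ppp1r15a (0.33) and Sesn2 (0.11) did not pass. Trib3 had too few counts to be tested, and whether PERK acted on these genes was not tested. The fold of Asns was 4.81 without Old replicate 2 and 2.69 without Old replicate 3. Creb3l1, an ER-bound transcription factor, did not pass either (1.13). The fold of Chac1 was 4.69 without Old replicate 2 and 3.24 without Old replicate 3.

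**Figure D3:**
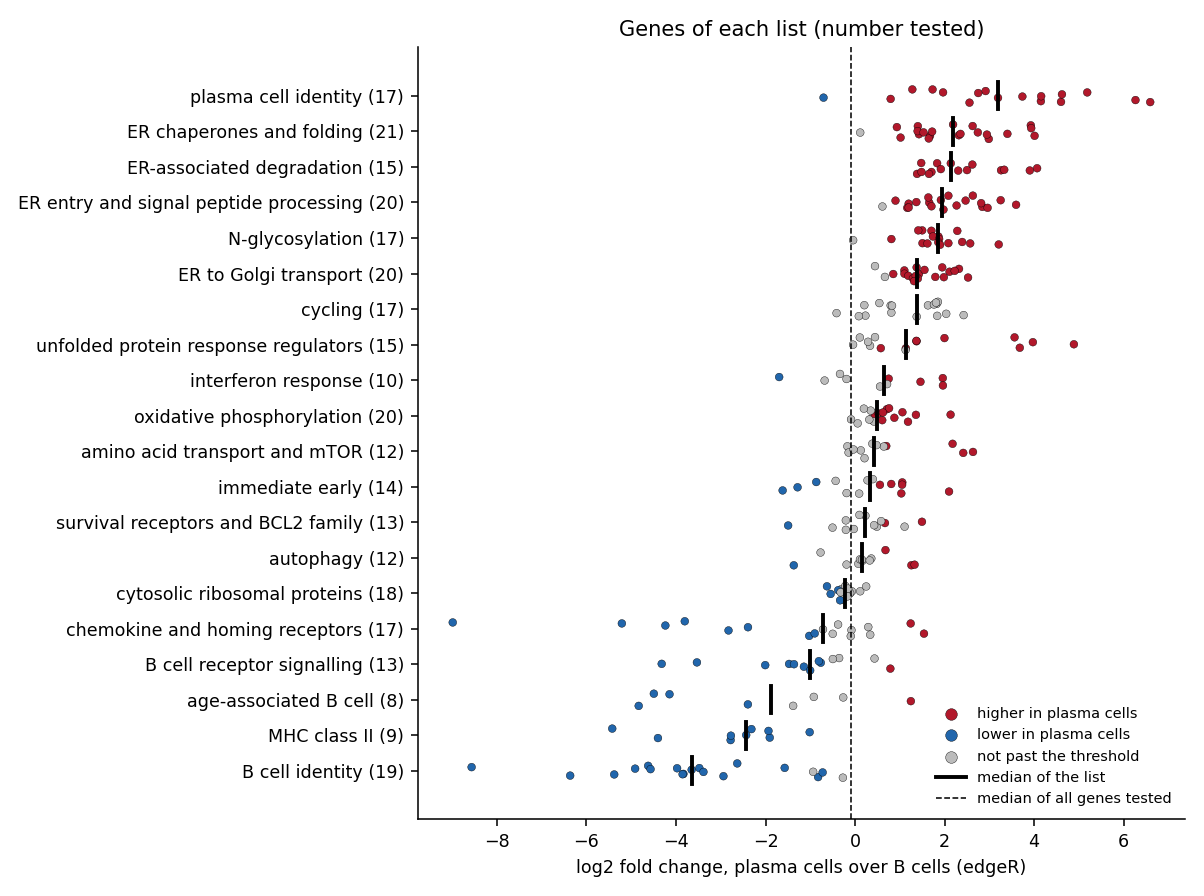
Each point is 1 gene, placed by its edgeR log2 fold change of plasma cells over B cells; red genes were higher in plasma cells, blue genes lower, grey genes not past the threshold, and black bars mark the median of each list. The ER lists lie right of the dashed median of all genes tested (-0.09), MHC class II and B cell identity lie left of it, and no cycling gene is called.

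The element shown above for 4 of these genes was found in the upstream 250 bases of 11 of 6525 tested genes with a RefSeq promoter (0.169%), and of 35 of 27025 promoters in all (0.130%). Both strands were searched. It stood before 9 of 980 genes that were higher in plasma cells (0.918%), before 0 of 926 that were lower, and before 7 of the 17 ER chaperones and folding enzymes with a promoter. The 9 genes were Derl3, Creld2, Hsp90b1, Dnajc3, Pdia6, Hspa5, Syvn1, Calr and Canx, and their log2 fold changes ran from 0.93 for Canx to 6.27 for Derl3. Of the related motifs, ERSE-II (ATTGG, 1 base of any kind, CCACG) stood before 5 tested genes and 2 of the higher ones, and the UPRE core (TGACGTGG) before 68 tested genes (1.04%) and 16 of the higher ones (1.63%). No match of these overlapped a match of the first element. A match is a run of letters, and binding was not measured.

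The B cell program was lower in plasma cells, with 17 of 19 tested genes lower (15 without the library block), none higher, and a median log2 fold change of -3.65. Pax5, the factor that holds B cell identity, had 0, 7.92 and 7.58 CPM in plasma cells and 312, 239 and 215 CPM in B cells (-5.38 ± 0.42, edgeR adjusted p = 1.92e-05). It was read in 0 of 27, 2 of 54 and 2 of 39 plasma cells, against 195 of 227, 175 of 215 and 670 of 1119 B cells, and after thinning in 1.69% of plasma cells, against 39.0% of B cells. Ebf1, an early B lineage factor, had a log2 fold change of -3.98 ± 0.31. Fcer2a, the low-affinity IgE receptor CD23, gave 2 UMIs in 1765845 plasma cell UMIs and 160, 93 and 858 UMIs in the B sums. Of the list only Fcrla (-0.27) and Bcl6 (-0.94) did not pass, and Cd79b, a subunit of the B cell receptor, was among the smallest decreases (-0.83), a call lost without the library block (adjusted p = 0.125).

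Other large decreases were Ccr7 (-5.21), H2-Oa (-5.42), Plaur (-4.77), Lrrk2 (-4.68), Cd22 (-4.62), Bank1 (-4.57), Hs3st1 (-4.55) and Cd86 (-4.50), while B3gnt5 and Sbk1 gave 2 UMIs each in all plasma cells. Ccr7, which guides lymphocytes to lymph nodes, had 7.73, 12.7 and 24.3 CPM in plasma cells and 363, 316 and 1064 CPM in B cells. H2-Oa gave UMIs in 1 plasma sum only, and its log2 fold change was -10.69 without Old replicate 3. Those of Cd22 and Hs3st1 were -5.27 and -3.70 without that library, and Hs3st1 had -5.49 without Old replicate 1. Of 13 genes of B cell receptor signalling, 9 were lower, 1 was higher and 3 did not pass (median -1.003). The number lower was 6 without the library block or without Old replicate 1. Cd72, Lyn, Syk and Ptprc, which act at or just below the receptor, were lower by log2 fold changes of -4.32, -2.01, -1.47 and -1.14, and Cd81, a tetraspanin of the B cell surface, was higher (0.79), a call lost without the library block (adjusted p = 0.0879).

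Antigen presentation was lower but was read in most plasma cells. All 9 MHC class II genes tested were lower (median log2 fold change -2.43). H2-Aa had 335, 624 and 1752 CPM in plasma cells and 4088, 3282 and 9369 CPM in B cells (-2.78 ± 0.23, edgeR adjusted p = 2.37e-05), without overlap. Single cells gave 303 of the 394 plasma UMIs of Old replicate 2 and 308 of the 1155 of Old replicate 3, and the log2 fold change was -3.44 without the cells that held at least 1% of UMIs from another cell type's markers. It was read in 17 of 27, 33 of 54 and 36 of 39 plasma cells, and in 6 of 26, 11 of 53 and 18 of 39 after thinning, against 99.5% of B cells. Cd74, the invariant chain, had 5311, 5499 and 14264 CPM in plasma cells and 11159.8, 9673 and 31759 CPM in B cells. Its log2 fold change of -1.01 (edgeR adjusted p = 9.41e-05) lay within overlapping groups and did not pass without the library block (adjusted p = 0.179). Old replicate 3 was the highest library for H2-Aa and for Cd74 in both cell types. Before scaling, H2-Aa averaged 1759 CPM in the remaining kept cells of these libraries and 832 CPM in the plasma sums. The part of free RNA in the plasma values was not tested. The MHC class II list took a median of 0.694%, 0.488% and 1.29% of UMIs in plasma cells, against 2.89%, 2.52% and 5.31% in B cells, and 0, 1 and 2 plasma cells reached the B cell median.

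Homing receptors were more often lower than higher in plasma cells. Of 17 chemokine and homing receptor genes tested, 2 were higher, 8 were lower and 7 did not pass (median log2 fold change -0.72). Of all genes tested, 14.9% were higher and 14.4% lower, so the number higher was near that share. S1pr1, which draws lymphocytes out of tissue, had 25.8, 3.17 and 13.7 CPM in plasma cells and 181, 124 and 226 CPM in B cells (-3.80 ± 0.36; -4.40 without Old replicate 1). The follicle receptor Cxcr5 (-4.24; -5.03 without Old replicate 3) was lower too, and the integrin subunit Itgal (1.54) and the retention marker Cd69 (1.24) were higher. Cxcr4, the receptor that holds plasma cells in bone marrow, had 85.1, 171 and 187 CPM in plasma cells and 269, 215 and 424 CPM in B cells. Its call (-1.02, edgeR adjusted p = 0.0121) was lost without the library block (adjusted p = 0.0771), without Old replicate 1 (0.0916) and without Old replicate 3 (0.103).

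Ccr10, a receptor of skin and mucosal plasma cells, had too few counts to be tested. It gave 11, 2 and 112 UMIs in plasma cells, in 5 of 27, 1 of 54 and 14 of 39 of them, and 0, 2 and 5 UMIs in B cells. Old replicate 3 held most of these UMIs, 36 of them in 1 cell. Of 13 survival genes, 2 were higher, 1 was lower and 10 did not pass, near the shares of all genes tested (14.9% higher, 14.4% lower). Tnfrsf13b (TACI) had 186, 249 and 255 CPM in plasma cells and 87.8, 83.3 and 74.1 CPM in B cells (log2 fold change 1.50 ± 0.21, edgeR adjusted p = 0.000535), and Mcl1, a BCL2 family survival factor, was 0.67 higher. The call of Mcl1 was lost without the library block (adjusted p = 0.0710). Tnfrsf13c, the BAFF receptor, had 90.2, 127 and 143 CPM in plasma cells and 132, 103 and 189 CPM in B cells, and it did not pass (-0.21 ± 0.22, edgeR adjusted p = 0.526). Bcl2a1b was lower (-1.49), but not past the threshold without Old replicate 3 (adjusted p = 0.0842).

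Il10, Ctla4, Lag3, Cxcl10 and Ly6c2 were chosen for description after they were seen to be high in plasma cells, so that their shared direction follows from the choice. Il10, an anti-inflammatory cytokine, had 49.0, 450 and 498 CPM in plasma cells and 15.9, 17.8 and 15.4 CPM in B cells (log2 fold change 4.10 ± 0.53, edgeR adjusted p = 0.000342). In plasma cells Old replicate 1 lay far below the other libraries, and without it the log2 fold change was 4.86, against 3.48 without Old replicate 3. Il10 was read in 6 of 27, 31 of 54 and 20 of 39 plasma cells, and in 2 of 26, 16 of 53 and 9 of 39 after thinning. B cells held it in 14 of 227, 18 of 215 and 39 of 1119, and after thinning in 6 of 223, 8 of 215 and 15 of 1092.

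Ctla4, an inhibitory receptor best known from T cells, was read in 11, 40 and 27 plasma cells of the 3 libraries, and Lag3, another inhibitory receptor, in 8, 31 and 15. In B cells they were read in 24 of 227, 44 of 215 and 71 of 1119 for Ctla4, and in 11, 2 and 18 for Lag3. After thinning Ctla4 was read in 34.7% of plasma cells and 3.73% of B cells, and Lag3 in 13.6% of plasma cells and 0.588% of B cells. Their log2 fold changes were 2.28 ± 0.37 (edgeR adjusted p = 0.00128) and 3.75 ± 0.60 (edgeR adjusted p = 0.00127; 4.66 without Old replicate 1, 2.96 without Old replicate 2). Of 57 plasma cells with an Il10 UMI, 50 also held Ctla4 (87.7%), compared with 44.4% of the other plasma cells, and 32 held Lag3. These shares are over cells of 3 libraries that differ in depth and in both genes, and they carry no test. Cd3e, a T cell gene, was read in 8 of the 120 cells, 6 of them among the 78 with Ctla4. Cxcl10, an interferon-induced chemokine, had 54.1, 569 and 983 CPM in plasma cells and 15.9, 22.9 and 20.5 CPM in B cells (4.38 ± 0.57, edgeR adjusted p = 0.000362; 5.15 without Old replicate 1, 3.54 without Old replicate 3). Ly6c2, a surface antigen of bone marrow plasma cells and monocytes, had 683, 613 and 255 CPM in plasma cells and 22.5, 20.3 and 16.2 CPM in B cells (4.58 ± 0.25).

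**Figure D4:**
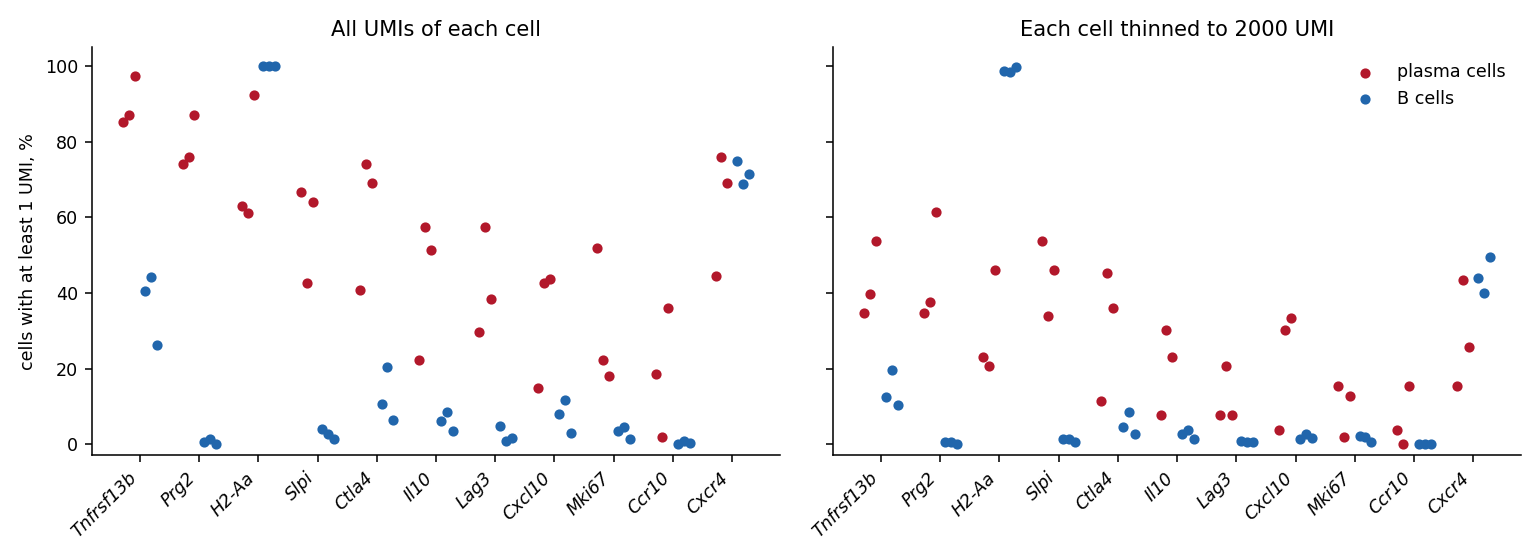
Each point is the percent of plasma cells (red) or B cells (blue) of 1 Old library with at least 1 UMI of the gene, replicates 1, 2 and 3 from left to right; the right panel repeats this after thinning each cell to 2000 UMIs. Prg2, Slpi, Il10 and Lag3 stay above the B cells in both panels, and among the plasma points of Il10 and Ctla4 Old replicate 1 is the lowest library.

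Whether plasma cells carried more cycling transcripts depended on which libraries entered, on thinning and, for Mki67, on the filter for low counts. With all 3 Old libraries, edgeR called 0 of 17 cycling genes (5 at an unadjusted p under 0.05, and 0 by DESeq2), at a median log2 fold change of 1.38. Without Old replicate 2, 16 of the 17 were higher in plasma cells, at a median of 2.65, and without Old replicate 1 or 3 0 were called, at medians of 1.04 and 0.22. Mki67 had 268, 26.9 and 94.0 CPM in plasma cells and 73.5, 76.7 and 4.33 CPM in B cells, so the groups overlapped (log2 fold change 1.63 ± 0.79, edgeR adjusted p = 0.154). Without Old replicate 2 it passed, at 2.89 (edgeR adjusted p = 2.4e-05), and without Old replicate 3 it was 0.47. With all 3 libraries and no low-count filter it also passed, at 1.55 (edgeR adjusted p = 4.88e-07). Mki67 was read in 14 of 27, 12 of 54 and 7 of 39 plasma cells and in 8, 10 and 14 B cells, and 35 of the 104 UMIs of Old replicate 1 came from a single cell. After thinning 8.47% of plasma cells and 0.980% of B cells of the Old libraries together held Mki67. By library these shares were 15.4% and 2.24% in Old replicate 1, 1.89% and 1.86% in replicate 2, and 12.8% and 0.549% in replicate 3. At least 5 UMIs of Mki67 and Top2a together were held by 3 of 27, 0 of 54 and 3 of 39 plasma cells, against 3 of 227, 5 of 215 and 1 of 1119 B cells. After thinning, 0 of 118 plasma cells and 3 of 1530 B cells of the Old libraries reached this limit. At least 3 UMIs of the cycling list were held by 94.2% of plasma cells and 75.1% of B cells. After thinning, the shares over the Old libraries together were 16.9% of plasma cells and 26.4% of B cells. This order did not turn in Old replicate 1, with 30.8% of plasma cells and 22.9% of B cells. It turned in Old replicate 2 (9.43% and 25.1%) and in Old replicate 3 (17.9% and 27.4%).

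Metabolic and stress lists had smaller median log2 fold changes than the ER lists, and some held genes called in both directions. For all genes tested, the shares called were 14.9% higher and 14.4% lower. Of 20 oxidative phosphorylation genes, 11 were higher and none lower (median log2 fold change 0.49), with the complex I subunit Ndufa1 highest at 2.13. The number that were higher was 5 without Old replicate 1 or without Old replicate 3, 14 without Old replicate 2 and 4 without the library block. Of 18 cytosolic ribosomal protein genes, 4 were lower and 14 did not pass (median -0.22). The number lower was 0 without the library block, and 2 with DESeq2, without Old replicate 1 or without Old replicate 3. Rps19 was -0.63, and its call was lost without the library block (edgeR adjusted p = 0.137). Of 12 amino acid transport and mTOR genes, 4 were higher, among them Slc3a2 (2.42) and Slc7a5 (2.64), the 2 chains of a leucine transporter, and the translation inhibitor Eif4ebp1 (2.18). The call of Slc7a5 was lost without the library block (adjusted p = 0.0828).

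Of 12 autophagy genes, 3 were higher and 1 was lower (median 0.16), with the cargo receptor Sqstm1 at 1.33. The number called in either direction was near the share of all genes tested (29.3%). Of 10 interferon response genes, 4 were higher and 1 was lower (median 0.64, and -0.24 without Old replicate 3), with Zbp1 and Bst2 both at 1.96 and Ly6a at 1.46. Of 14 immediate early genes, 6 were higher and 3 were lower (median 0.34), with Jun higher (2.10) and Junb and Nr4a1 lower (-1.28 and -1.62). Of 8 genes of age-associated B cells, 1 was higher, 4 were lower and 3 did not pass (median -1.89). The 4 lower ones were Fcrl5, Zbtb32, Cd86 and Nt5e, and the higher one was Spn (CD43, 1.25), a surface protein regained by plasma cells, whose call was lost without the library block (adjusted p = 0.0817).

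Markers of other cell types were present in the plasma sums, and their part in the values above was not tested. The sums over marker lists are CPM before TMM scaling, and values of single genes in plasma cells and B cells are after it. The summed fibroblast and progenitor markers, all 6 of them detected, ranged from 1228 to 1703 CPM in plasma cells, from 2221 to 2334 CPM in B cells and from 13591 to 17372 CPM in the remaining cells. The 5 endothelial markers ranged from 192 to 2833 CPM in plasma cells and from 837 to 4017 CPM in B cells, and 939 UMIs in the plasma sum of Old replicate 1 came from 1 cell. The 7 macrophage and monocyte markers ranged from 153 to 1625 CPM in plasma cells and from 693 to 959 CPM in B cells, with 857 UMIs of 1 cell in the plasma sum of Old replicate 2, and the 7 T and NK markers from 17.6 to 205 CPM in plasma cells and from 53.4 to 137 CPM in B cells. Plasmacytoid dendritic cells, which can also transcribe Jchain, were checked by 7 genes, which summed to 943 to 1964.5 CPM in plasma cells, 996 to 1212 CPM in B cells and 109 to 203 CPM in the remaining cells. Siglech, Klk1 and Cd300c were at 0 UMIs in all 120 plasma cells, and for Siglech this allows a share of up to 2.5% of cells with a UMI. Cox6a2 gave 17, 18 and 5 UMIs in plasma cells and 0, 0 and 2 in B cells, and Ccr9 1, 4 and 9 UMIs in plasma cells and 10, 5 and 9 in B cells. Ly6d was higher (log2 fold change 0.61), but in Old replicate 1 it had 815 CPM in plasma cells and 848 CPM in B cells. Its call was lost with DESeq2, without the library block, without Old replicate 2 or 3, with either other Jchain limit and without called doublets. Irf8 was lower (-0.89), a call lost without the library block, without Old replicate 1 or 3 and with stricter cells. The epithelial list had Krt14 at 0 and Epcam higher (log2 fold change 2.75), with 95.4, 87.1 and 317 CPM in plasma cells and 30.7, 9.14 and 33.1 CPM in B cells, while Krt8 was lower (-1.56). The call of Krt8 was lost with DESeq2 (adjusted p = 0.0571), without the library block (0.187) and without Old replicate 3 (0.143), and its log2 fold change was -0.29 with called doublets left out and -0.35 without the cells with other markers. Epcam averaged 132 CPM before scaling in the remaining cells, below the plasma sum of Old replicate 3 and above the other plasma sums.

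In all, 5 plasma cells of the Old libraries held at least 1% of their UMIs from the markers of 1 other cell type, and 7 were called doublets. The plasmacytoid dendritic list was not counted for this limit of 1%. With these 5 cells and the like B cells left out of the sums, the decreases of Dcn (-0.87) and Col3a1 (-1.01) went to 0.01 and 0.10, and that of Mrc1 (-1.49) to -0.09, while 2403 genes were called in all. These 3 calls were also lost without the library block (adjusted p = 0.0679, 0.162 and 0.0986). Jun was 3.09, Bcl2a1b -2.24, Ebf1 -4.66 and S1pr1 -4.57 without these cells. With called doublets left out, 2549 genes were called, and Epcam was 3.57.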

How the data were processed

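Raw UMI counts per gene and cell, as the authors deposited them, came from 7 droplet libraries. Per the submitters' processing notes, Cell Ranger 4.0.0 and mm10 were used; filters beyond the deposited barcodes are not given in the sources used here. Cells needed 500 UMIs, 300 genes and at most 15% mitochondrial UMIs; the cells and gene lists were chosen with earlier results of these data known. Doublets were kept in the main values and left out in an alternative (the highest Scrublet scores in scanpy 1.11.5, 0.8% per 1000 cells). Counts were summed per library and cell type where both types had at least 20 cells (3 Old libraries) and tested with edgeR 4.0.16 in R 4.3.3 (quasi-likelihood, 2-sided, TMM, filterByExpr, library as block, 2 residual degrees of freedom, Benjamini-Hochberg over 8396 genes; the 5 gate genes left out). The block comes from the design, since both sums of a library share its cells' source. Their deviations correlated by 0.346, 0.0800 and 0.504 within Old replicates 1, 2 and 3. The plasma sum of Old replicate 2 correlated by 0.149 with the B sum of Old replicate 1, above the value within its own library. The other unmatched pairs ran from -0.440 to 0.163. On simulated counts with 8153 genes, 95 of 99 genes at a log2 fold change of 2 and 31 of 98 at 1 were called, and 5 of 7956 unchanged genes. The simulation gave all genes the same dispersion, had no library effect and changed few genes. Its rates describe that setting and cannot give the error rate of the test on the real counts.

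Genes named were the 12 largest increases and decreases that passed, moved alike in all 3 libraries without overlap, reached 50 CPM in the higher cell type and were not over 10 times higher in the remaining cells, together with up to 4 passing genes per list and a fixed set. Il10, Ctla4, Lag3, Cxcl10 and Ly6c2, and further list members, were added after their values were seen. SE is an approximate standard error, the absolute log2 fold change divided by the square root of the edgeR quasi-likelihood F statistic. Promoter sequences came from RefSeq (GRCm38.p6), matched by symbol for 6525 of 8396 tested genes. Alternatives were RLE size factors, DESeq2 1.42.0, no low-count filter, no library block, each library left out, other gates, stricter cells, doublets or cells with other markers left out, and thinning. The interval of a share is an exact Clopper-Pearson interval at 95%, and a count of 0 allows up to 3 counts.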

Additional observations from a re-analysis of the deposited data

Results flagged for a closer look

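In 5 measures per library, the 4 Young libraries held 1 value that stood apart from the other 3, and chance alone gives such a value in about 1 of 20 groups for the 3 measures not built on the plasma cell count. Young replicate 2 had the only plasma cell of its group, 0.0169% of kept cells and 1.22 plasma cells per 100 B cells. Counts of 0, 1, 0 and 0 always set the 1 apart, and the gate chose these cells, so both values are a description. The same library had the highest shares of other cells with a Jchain UMI, 1.39%, and of cells with at least 10 Dcn UMIs that held one, 1.72%. All 4 of these values rest on 1 library, and the first 2 on 1 cell that was called a doublet. Young replicate 3 had the highest share of B cells, 6.76%. Groups of 3 libraries, such as the Old group, were not examined in this way.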

How the results depend on the processing

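The mean share of plasma cells in Old libraries stayed between 0.492% and 0.619% under other gates, stricter cells and without called doublets, and between 0.521% and 0.680% with 1 Old library left out; in Young libraries it was 0% to 0.00564% with 1 left out. A limit of 3 UMIs from any other cell type left 2 plasma cells (0.0101%) and 3, 2 and 235 B cells in the Old libraries, so no test was run there. This limit counted the plasmacytoid dendritic list, which summed to 943 to 1964.5 CPM in plasma cells and 109 to 203 CPM in the remaining cells. It could thus drop plasma cells for transcripts of that list. A limit of 1% of UMIs, which did not count that list, was added after seeing the data. The count of 2464 genes became 1495 (645 lower) without the replicate block, 1350 (644 higher, 706 lower) after thinning, which tests 3879 genes, and 401 (219 higher, 182 lower) with at least 500 genes and at most 5% mitochondrial UMIs, where Old replicate 1 kept 12 plasma cells and dropped out. DESeq2 called 761 genes lower. With 1 Old library left out the count ran from 1367 to 2665, higher genes from 786 to 1333 and lower genes from 581 to 1332. Of the 2464 calls, 1494 were also called without the block and 1707 by DESeq2. Without a low-count filter 43.6% of calls were higher in plasma cells, against 50.9%, and the median over all genes was -0.31. Of 118 named genes, 73 kept direction and side of the threshold under all 13 settings that gave them a value; 21 lost their call without the block and 37 of 114 with stricter cells. With 1 Old library left out, 14 or 15 plasma identity genes, 19 or 20 ER chaperones and 15 to 18 ER to Golgi genes were higher, and 16 or 17 B identity genes lower; DESeq2 called 0 genes of the 5 ER lists lower. Of the called genes named here, 18 of 129 moved by over 1.5 times without the cells with 1% other UMIs, 8 of 129 without called doublets, 23 of 118 after thinning, 38 of 125 with stricter cells, and 7, 10 and 17 of 130 without Old replicates 1, 2 and 3. Among genes not called, Uggt1 (-0.04) was 0.0099 without the block, -0.27 to 0.30 with 1 Old library left out, 0.015 with Jchain of at least 10, 0.11 with stricter cells and 0.53 after thinning, Ero1lb was -0.24 after thinning, and Sesn2 was -0.11 without doublets and -0.053 without the cells with 1% other UMIs. With cells of 1% other UMIs left out, Dcn turned to 0.0080, Col3a1 to 0.096 and Fabp4 to 0.014; Col3a1 was 0.0039 after thinning and Tnfrsf13c 0.42 with stricter cells. The cycling median was -0.25 after thinning, which keeps 3 of its genes, and the interferon median -0.35 without the filter and -0.24 to 0.83 with 1 Old library left out; the cause was not tested. Depth limits single cells most: Il10 was read in 47.5% of plasma cells, and in 22.9% after thinning to 2000 UMIs.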
